A study of Arabidopsis thaliana with 12 samples.

Results

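The nuclear genes for the light reactions of photosynthesis were followed in shoots of Arabidopsis thaliana. They are 49 of the 32833 loci of the expression table, chosen by locus from the annotated families and not by their values. Earlier results of these data were known when they were chosen. The set holds 6 LHCA and 13 LHCB antenna genes, 12 nuclear photosystem I genes (PSA), 10 nuclear photosystem II genes (PSB) and 8 genes of electron transport and ATP synthesis (PETC, PETE1, PETE2, FNR1, FNR2, FD2, ATPC1 and ATPD). Each of the 49 was found in the table and each passed the minimum mean of 1 TPM (transcripts per 1000000 transcripts) used for testing.

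In the light reactions, chlorophyll in antenna proteins absorbs light and passes the energy to the reaction centres of photosystem II and photosystem I. Electrons taken from water flow through the cytochrome b6f complex, plastocyanin and ferredoxin to NADP, and the proton gradient made on the way drives ATP synthase. The antenna proteins and many smaller subunits are encoded in the nucleus and imported into the chloroplast, whereas the core subunits are encoded in the chloroplast genome. In green leaves these nuclear transcripts are among the most abundant.

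Shoots were cut from seedlings grown for 10 days on washed agar plates. The groups were the mutant cdk8-1 without sulfate, cdk8-1 with sulfate, Col-0 without sulfate and Col-0 with sulfate, with 3 libraries in each. Col-0 (Columbia-0) is the laboratory wild type, and cdk8-1 carries a mutation in CDK8, the kinase of the Mediator complex that links transcription factors to RNA polymerase II. Plates with sulfate held 1.5 mM magnesium sulfate and plates without it held magnesium chloride in its place (0 mM sulfate from this salt), so that chloride differed as well. Seedlings stood on their plate type from sowing, and 1 mutant line was compared with 1 wild type. The labels do not say whether the libraries of a group came from separate plates, so that each p rests on the spread of these libraries, which may be technical.

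CDK8 itself, the check of the genotype labels, had 5.19, 5.20 and 6.09 TPM in cdk8-1 without sulfate, against 33.3, 33.6 and 32.7 TPM in Col-0 without sulfate. It had 2.96, 4.01 and 4.99 TPM in cdk8-1 with sulfate, against 21.0, 23.1 and 24.4 TPM in Col-0 with sulfate. The labelled genotypes did not overlap. Between 17441215 and 25175873 reads in genes were recovered per library, and a single read was worth 0.0710 to 0.0962 TPM where the exons span 1 kilobase. The seed storage transcripts CRA1, CRC and OLEO1 stood apart in cdk8-1 with sulfate replicate 1, whose 6 seed markers summed to 167 TPM, and the part of these in the results below was not tested. TPM values of a library share 1 total, and without sulfate the median of all 19127 tested genes was higher by 0.45 on the log2 scale in cdk8-1 and by 0.46 in Col-0. For this reason each log2 response to sulfate is printed after subtracting that of the median gene, unless the deposited scale is named. Calls and adjusted p test the change before this subtraction. Folds on means and percents kept are not subtracted either. Differences between genotypes are given as deposited, where the median gene stood at 0.07 with sulfate and 0.08 without.

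Without sulfate, light-reaction mRNA made up a much smaller share of all transcripts in shoots of both genotypes. This share was larger in cdk8-1 than in Col-0. The summed level of the 49 genes was 38234, 47149 and 37752 TPM in cdk8-1 without sulfate, against 197209, 207141 and 206481 TPM in cdk8-1 with sulfate. It was 16398, 16288 and 15516 TPM in Col-0 without sulfate, against 233449.9, 225932 and 235902 TPM in Col-0 with sulfate. No 2 of the 4 groups overlapped. Light-reaction transcripts thus made up 3.82, 4.71 and 3.78% of all transcripts in cdk8-1 without sulfate, and 1.64, 1.63 and 1.55% in Col-0 without sulfate. Starved cdk8-1 shoots kept 20.2% of the summed level of their supplied controls, and starved Col-0 shoots 6.93%. In bulk shoots, fewer cells that express these genes and less RNA per cell cannot be told apart.

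All 49 genes were lower without sulfate in cdk8-1, where 24.7% of all tested genes were called lower, and all 49 were lower in Col-0, where 28.8% were. None was called higher, where 56.9% of all tested genes were in cdk8-1 and 56.1% in Col-0, limma with an unadjusted p under 0.05 and voom calling 0 as well. The median member had a response of -2.66 relative to the median gene in cdk8-1 and -4.07 in Col-0, on the log2 scale. In all 49 the libraries without and with sulfate did not overlap in either genotype, where 25.3% of all tested genes were lower without overlap in cdk8-1 and 29.0% in Col-0, and the largest adjusted p was 2.17e-07 in cdk8-1 and 4.65e-09 in Col-0. Of the 49, 45 in cdk8-1 and 48 in Col-0 stood among the 5% of tested genes with the lowest fold change. Some of the most abundant transcripts of the shoot were involved. Among the 50 most abundant transcripts of a group were 9 of these genes in cdk8-1 without sulfate and 32 in cdk8-1 with sulfate. The corresponding counts were 1 in Col-0 without sulfate and 33 in Col-0 with sulfate.

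**Figure D1:**
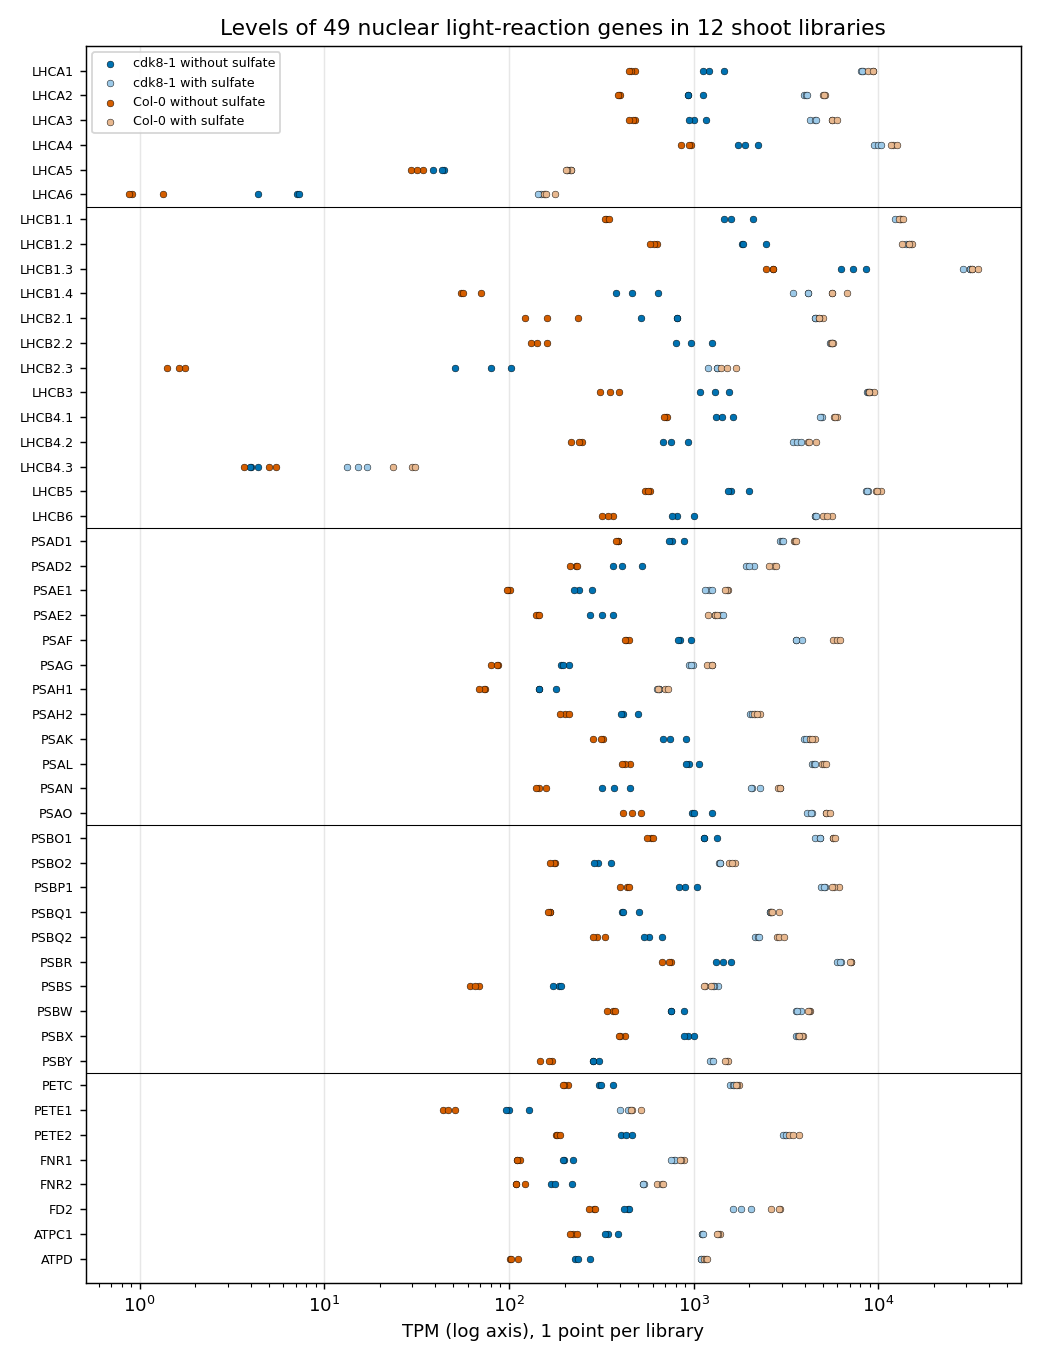
Each row is 1 gene and each point the TPM of 1 library, on a log axis, with black lines between the antenna, photosystem I, photosystem II and electron transport classes. For 48 of the 49 genes the points of cdk8-1 without sulfate (dark blue) lie right of those of Col-0 without sulfate (dark orange). LHCB4.3 is the gene where these groups overlap.

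The classes did not respond alike in size. LHCB genes had the lowest median response, at -2.94 in cdk8-1 and -5.02 in Col-0. LHCA genes followed, at -2.78 in cdk8-1 and -4.16 in Col-0. Photosystem I genes stood at -2.66 in cdk8-1 and -4.03 in Col-0, photosystem II genes at -2.56 in cdk8-1 and -3.75 in Col-0, and electron transport genes at -2.47 in cdk8-1 and -3.66 in Col-0. The order of these medians was the same in both genotypes, and the ranges of the classes overlapped. By summed level, photosystem I kept the most in cdk8-1, at 22.4%, and electron transport the most in Col-0, at 10.1%. Photosystem I was the most even class, with an SD over its genes of 0.17 in cdk8-1 and 0.34 in Col-0, and LHCB in Col-0 the most uneven, with 1.71.

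The make-up of the light-reaction transcripts shifted with these responses. LHCB transcripts formed 46.4, 48.98 and 47.6% of the summed level of the 49 genes in cdk8-1 without sulfate, against 50.8, 51.1 and 51.4% in cdk8-1 with sulfate. They formed 37.7, 38.1 and 39.0% in Col-0 without sulfate, against 48.9, 48.5 and 49.2% in Col-0 with sulfate. The libraries of Col-0 without sulfate were lower than all others, and those of cdk8-1 without sulfate overlapped with those of Col-0 with sulfate. The share of photosystem II genes moved the other way, with 21.1, 21.2 and 20.6% in Col-0 without sulfate, against 16.0, 16.1 and 15.4% in Col-0 with sulfate.

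**Figure D2:**
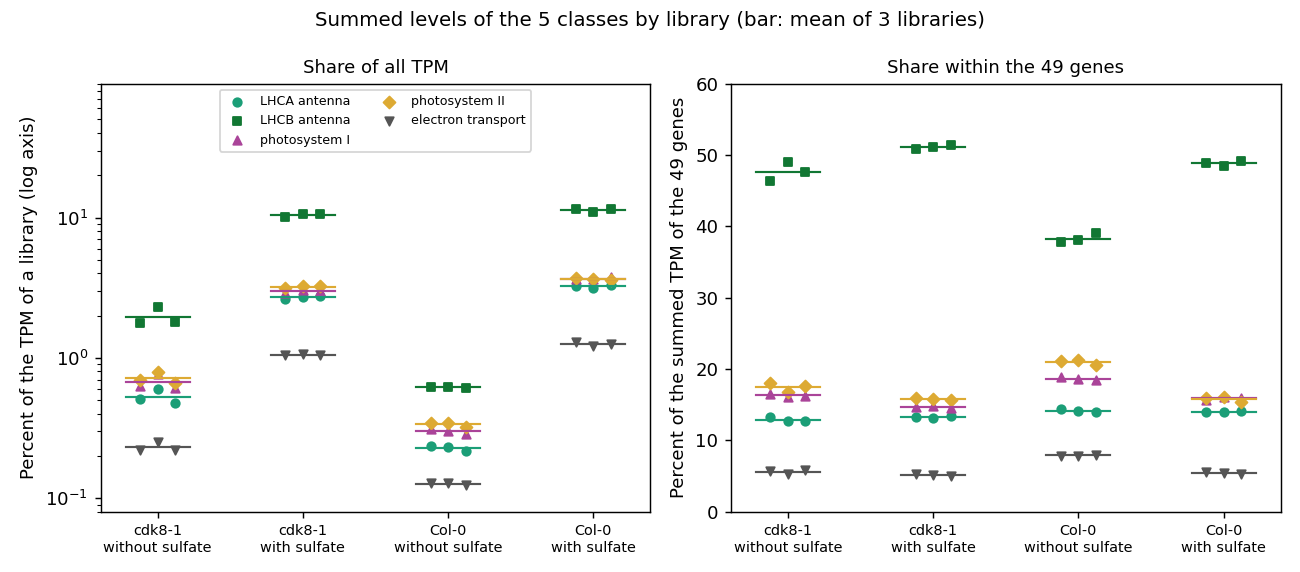
Points are libraries and bars the means of 3 libraries, in the order cdk8-1 without sulfate, cdk8-1 with sulfate, Col-0 without sulfate and Col-0 with sulfate. The left panel gives the summed TPM of each class as a percent of the library on a log axis, and the right panel as a percent of the summed TPM of the 49 genes. The LHCB share in the right panel is lowest in Col-0 without sulfate, at 37.7% to 39.0%.

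LHCB proteins are the antenna of photosystem II. LHCB1, LHCB2 and LHCB3 form the trimers of the light-harvesting complex LHCII, while LHCB4, LHCB5 and LHCB6 (CP29, CP26 and CP24) connect them to the core. LHCB1 is encoded by copies so alike that short reads cannot always be placed, and the first 90 coding bases of the 4 copies that were measured are shown because they mark how close the copies are. They are from RefSeq, assembly TAIR10.1, and capitals mark bases that differ from LHCB1.1.
LHCB1.1: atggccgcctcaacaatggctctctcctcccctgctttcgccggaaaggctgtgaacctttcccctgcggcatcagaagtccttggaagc
LHCB1.2: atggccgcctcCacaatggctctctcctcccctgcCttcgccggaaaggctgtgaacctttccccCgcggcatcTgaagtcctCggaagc
LHCB1.3: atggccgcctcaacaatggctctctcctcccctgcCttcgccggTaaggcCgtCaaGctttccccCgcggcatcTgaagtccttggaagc
LHCB1.4: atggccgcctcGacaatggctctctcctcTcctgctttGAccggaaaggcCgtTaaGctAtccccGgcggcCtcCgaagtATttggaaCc
Over these bases LHCB1.2 differed from LHCB1.1 at 5 positions, LHCB1.3 at 7 and LHCB1.4 at 14. Over the whole coding sequence the first 3 copies were 95.6% to 96.4% identical, and LHCB1.4 was 86.8% to 88.2% identical to them. Of all stretches of 100 bases in the exons of a copy, 4.4% occurred elsewhere for LHCB1.1, 1.5% for LHCB1.2, 3.3% for LHCB1.3 and 3.3% for LHCB1.4. LHCB1.5, a further copy next to LHCB1.4, is listed at 0 in all libraries.

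LHCB1.3 (AT1G29930) was the most abundant of all transcripts in cdk8-1 without sulfate and in both groups with sulfate, and ranked 12 in Col-0 without sulfate. It had 6268, 8579 and 7335 TPM in cdk8-1 without sulfate, against 28906, 31526 and 31415 TPM in cdk8-1 with sulfate. Values were 2460.3, 2696 and 2687 TPM in Col-0 without sulfate, against 32158, 32097 and 34686 TPM in Col-0 with sulfate. Starved libraries were lower than all supplied ones, and starved cdk8-1 lay above starved Col-0. The response of LHCB1.3 was -2.51 ± 0.11 (SE, adjusted p = 3.09e-09) in cdk8-1 and -4.12 ± 0.11 (SE, adjusted p = 1.05e-11) in Col-0. Its share of the summed LHCB level was higher without sulfate, at 35.3, 37.1 and 40.8% in cdk8-1 without sulfate, against 28.8, 29.8 and 29.6% in cdk8-1 with sulfate. In Col-0 the share was 39.8, 43.4 and 44.4% without sulfate, against 28.2, 29.3 and 29.9% with sulfate. The dominant LHCB1 copy therefore made up more of a smaller pool.

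LHCB1.4 (AT2G34430) fell most among the LHCB1 copies. It had 379, 642 and 466 TPM in cdk8-1 without sulfate, against 3436, 4162 and 4178 TPM in cdk8-1 with sulfate, and 55.2, 56.2 and 70.8 TPM in Col-0 without sulfate, against 5615, 5626 and 6791 TPM in Col-0 with sulfate. The 4 groups did not overlap. On group means it was 7.92-fold lower without sulfate in cdk8-1 and 99.0-fold lower in Col-0. LHCB1.1 was 7.47-fold lower in cdk8-1 and 39.1-fold lower in Col-0, and LHCB1.2 was 7.10-fold lower in cdk8-1 and 23.6-fold lower in Col-0. Set against LHCB1.3 in the same library, LHCB1.4 stood at 0.0605, 0.0748 and 0.0635 in cdk8-1 without sulfate and at 0.119, 0.132 and 0.133 in cdk8-1 with sulfate. The ratio was 0.0224, 0.0208 and 0.0264 in Col-0 without sulfate and 0.175, 0.175 and 0.196 in Col-0 with sulfate. Ratios without and with sulfate did not overlap in either genotype, with an exact two-sided permutation p of 0.1 in each, the smallest that 3 against 3 libraries allow. Ratios were taken for 14 pairs of related genes, and no adjustment over them can take p below this value.

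In the LHCB2 family the spread between copies was widest. LHCB2.3 (AT3G27690, chr3:10255906-10257489, plus strand, TAIR10.1) had 79.5, 103 and 51.0 TPM in cdk8-1 without sulfate, against 1340.4, 1338 and 1193 TPM in cdk8-1 with sulfate. Values were 1.75, 1.63 and 1.41 TPM in Col-0 without sulfate, against 1691, 1405 and 1515 TPM in Col-0 with sulfate. The libraries of starved Col-0 held 29, 26 and 29 reads of the gene and lay far below all others, and those of starved cdk8-1 lay between them and the supplied groups. On group means LHCB2.3 was 16.6-fold lower without sulfate in cdk8-1 and 962-fold lower in Col-0. The response on log2(TPM + 1), a scale that shrinks the change of low values, was -4.54 ± 0.18 (SE, adjusted p = 5.28e-10) in cdk8-1 and -9.66 ± 0.18 (SE, adjusted p = 3.30e-13) in Col-0, the lowest response among the 49 genes. On the annotated gene model 40.6% of its exon bases overlap a gene on the other strand, and reads in that overlap may not be counted for it. LHCB2.2, its relative, had 972, 1261 and 805 TPM in cdk8-1 without sulfate, against 5510.5, 5637 and 5639 TPM in cdk8-1 with sulfate, and 159.9, 142 and 132 TPM in Col-0 without sulfate, against 5690.4, 5519.9 and 5583 TPM in Col-0 with sulfate. The ratio of LHCB2.3 over LHCB2.2 was 0.0818, 0.0813 and 0.0633 in cdk8-1 without sulfate, against 0.243, 0.237 and 0.212 in cdk8-1 with sulfate, and 0.0110, 0.0115 and 0.0106 in Col-0 without sulfate, against 0.297, 0.254 and 0.271 in Col-0 with sulfate. The 4 sets of ratios did not overlap.

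LHCB2.1 had 809, 811 and 519 TPM in cdk8-1 without sulfate, against 4571, 4614 and 4561 TPM in cdk8-1 with sulfate, and 238, 160.4 and 123 TPM in Col-0 without sulfate, against 5021, 4795 and 4800.3 TPM in Col-0 with sulfate. LHCB2.1 and LHCB2.2 are 96.6% identical in their coding sequence and share 9.2% and 12.4% of their stretches of 100 bases, so that reads between this pair are uncertain. Over LHCB2.2, LHCB2.1 stood at 0.832, 0.643 and 0.644 in cdk8-1 without sulfate, against 1.49, 1.13 and 0.925 in Col-0 without sulfate. These did not overlap, the direction being lower in cdk8-1. LHCB3, a trimer subunit with a single gene, had responses of -3.21 ± 0.12 in cdk8-1 and -5.14 ± 0.12 in Col-0 (SE).

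The minor antenna gene LHCB4.3 (CP29 type, also called LHCB8) was low throughout, and on the log2(TPM + 1) scale, which understates the change of low genes, its response was the nearest to 0 among LHCB genes in both genotypes. On mean TPM it was 3.67-fold lower without sulfate in cdk8-1, where LHCB4.1 was 3.36-fold lower, and 5.99-fold lower in Col-0, where LHCB4.1 was 8.29-fold lower. It had 4.38, 4.03 and 3.98 TPM in cdk8-1 without sulfate, against 15.2, 13.2 and 17.0 TPM in cdk8-1 with sulfate. Values were 5.45, 3.69 and 5.00 TPM in Col-0 without sulfate, against 30.0, 31.2 and 23.5 TPM in Col-0 with sulfate. Starved groups overlapped with each other and lay below both supplied groups. Its response was -2.10 ± 0.14 (SE, adjusted p = 2.17e-07) in cdk8-1 and -2.82 ± 0.14 (SE, adjusted p = 4.65e-09) in Col-0. LHCB4.1 had 1326, 1632 and 1419.5 TPM in cdk8-1 without sulfate, against 4867, 4988 and 4848 TPM in cdk8-1 with sulfate, and 710.4, 718 and 691 TPM in Col-0 without sulfate, against 5953, 5791 and 5833 TPM in Col-0 with sulfate. LHCB4.2, its relative, stood at 0.568, 0.569 and 0.483 of the LHCB4.1 level in cdk8-1 without sulfate, against 0.707, 0.731 and 0.789 in cdk8-1 with sulfate. In Col-0 these ratios were 0.352, 0.335 and 0.312 without sulfate, against 0.699, 0.732 and 0.789 with sulfate. The ratio was lower without sulfate in both genotypes. LHCB5 had responses of -2.80 ± 0.09 in cdk8-1 and -4.60 ± 0.09 in Col-0, and LHCB6 of -2.86 ± 0.09 in cdk8-1 and -4.41 ± 0.09 in Col-0 (SE).

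The bases before the LHCB2 genes and LHCB4.3 are shown because LHCB2.3 had the lowest response of the LHCB class and LHCB4.3 the one nearest to 0 on the log2(TPM + 1) scale, with LHCB2.1 and LHCB2.2 as the relatives of LHCB2.3. Each is the 250 bases before the annotated gene start, in the direction of the gene, from RefSeq TAIR10.1. Capitals mark the motifs that were searched on both strands. The G-box of light-regulated promoters was searched as CACGTG. The I-box, also common in promoters of photosynthetic genes, was searched as GATAAG. The CCAAT-type element was searched with the letters CCAATC, and the TATA box was searched as TATAAA.
LHCB2.1 (chr2:1824481-1824730, minus strand): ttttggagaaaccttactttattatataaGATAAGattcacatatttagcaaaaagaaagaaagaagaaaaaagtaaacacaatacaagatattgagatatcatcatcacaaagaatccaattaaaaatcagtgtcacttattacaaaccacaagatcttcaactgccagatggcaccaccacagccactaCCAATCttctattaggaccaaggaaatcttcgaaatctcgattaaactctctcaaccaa
LHCB2.2 (chr2:1800473-1800722, minus strand): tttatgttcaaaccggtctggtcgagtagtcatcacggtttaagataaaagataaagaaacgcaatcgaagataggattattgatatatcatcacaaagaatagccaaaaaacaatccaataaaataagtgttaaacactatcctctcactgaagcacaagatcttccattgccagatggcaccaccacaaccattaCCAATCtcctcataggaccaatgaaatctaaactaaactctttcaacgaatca
LHCB2.3 (chr3:10255656-10255905, plus strand): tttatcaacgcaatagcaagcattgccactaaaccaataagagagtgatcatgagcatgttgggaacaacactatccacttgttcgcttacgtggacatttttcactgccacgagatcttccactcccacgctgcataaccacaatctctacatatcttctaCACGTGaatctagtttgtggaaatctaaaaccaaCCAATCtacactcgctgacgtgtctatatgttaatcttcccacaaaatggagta
LHCB4.3 (chr2:16745378-16745627, plus strand): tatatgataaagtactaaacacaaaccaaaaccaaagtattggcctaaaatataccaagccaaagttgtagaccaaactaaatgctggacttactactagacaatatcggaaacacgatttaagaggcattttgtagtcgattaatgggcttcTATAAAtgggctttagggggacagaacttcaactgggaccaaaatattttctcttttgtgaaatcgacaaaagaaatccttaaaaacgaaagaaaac
CCAATC lies 59, 53 and 54 bases before the start in LHCB2.1, LHCB2.2 and LHCB2.3. LHCB2.3 also holds a G-box 88 bases before the start, and LHCB4.3 holds TATAAA alone. Over the set, CCAATC was found in 13 of 49 windows (26.5%), against 10.2% of the windows of all 27443 genes, and stood in 6 of 13 LHCB, 3 of 6 LHCA, 3 of 8 electron transport, 1 of 10 photosystem II and 0 of 12 photosystem I genes. The G-box was found in 9 of 49 (18.4%), against 6.5% of all. GATAAG was found in 12 of 49 (24.5%), against 12.3%, and TATAAA in 22 of 49 (44.9%), against 47.3%. The G-box reads the same on both strands, no motif contains another, and a match says only that the letters are in the window.

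LHCA proteins are the antenna of photosystem I. LHCA4 was the most abundant of them, with 1891, 2221 and 1744 TPM in cdk8-1 without sulfate, against 9470.1, 9996 and 10398 TPM in cdk8-1 with sulfate, and 971, 949 and 849.5 TPM in Col-0 without sulfate, against 11999.9, 11713 and 12704 TPM in Col-0 with sulfate. LHCA1, LHCA2, LHCA3 and LHCA4 had responses of -3.15, -2.48, -2.56 and -2.80 in cdk8-1, and of -4.76, -4.15, -4.07 and -4.17 in Col-0. Starved cdk8-1 lay between starved Col-0 and the supplied groups in each of these 4 genes. LHCA5 and LHCA6, which link photosystem I to the NDH complex of cyclic electron flow, were far less abundant. LHCA6 had 7.12, 7.33 and 4.39 TPM in cdk8-1 without sulfate, against 157, 149 and 143 TPM in cdk8-1 with sulfate. Values were 0.915, 0.872 and 1.34 TPM in Col-0 without sulfate, against 178, 155 and 159 TPM in Col-0 with sulfate. The starved Col-0 libraries held 12, 11 and 22 reads of LHCA6, which limits the precision of its fold. It was 23.8-fold lower without sulfate in cdk8-1, the largest fall of the 49 genes in that genotype, and 157-fold lower in Col-0. LHCA5 had 38.9, 44.3 and 43.4 TPM in cdk8-1 without sulfate, against 218, 213 and 205 TPM in cdk8-1 with sulfate, and 34.3, 29.3 and 31.9 TPM in Col-0 without sulfate, against 218, 207 and 204 TPM in Col-0 with sulfate. Its responses of -2.75 ± 0.07 in cdk8-1 and -3.14 ± 0.07 in Col-0 (SE) were the closest of any member. The LHCA6 over LHCA5 ratio was 0.183, 0.165 and 0.101 in cdk8-1 without sulfate, against 0.720, 0.697 and 0.697 in cdk8-1 with sulfate, and 0.0267, 0.0297 and 0.0422 in Col-0 without sulfate, against 0.817, 0.750 and 0.779 in Col-0 with sulfate. This ratio was lower without sulfate in both genotypes and lowest in starved Col-0.

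Photosystem I genes moved close together. PSAO, one of the subunits where LHCII docks during state transitions, had the highest mean over the 12 libraries, although PSAL was higher in cdk8-1 with sulfate and PSAF in Col-0 with sulfate. PSAO had 976, 1261 and 1010.3 TPM in cdk8-1 without sulfate, against 4115, 4363 and 4326 TPM in cdk8-1 with sulfate. Values were 517, 464 and 417 TPM in Col-0 without sulfate, against 5219, 5210.5 and 5472 TPM in Col-0 with sulfate. The lowest response in both genotypes was that of PSAN, a subunit on the lumen side, at -2.94 ± 0.10 (SE, adjusted p = 2.42e-10) in cdk8-1 and -4.76 ± 0.10 (SE, adjusted p = 1.21e-12) in Col-0. It had 371, 451 and 321 TPM in cdk8-1 without sulfate, against 2065, 2283 and 2048 TPM in cdk8-1 with sulfate, and 158, 145 and 139.5 TPM in Col-0 without sulfate, against 2951, 2852 and 2948 TPM in Col-0 with sulfate. The smallest fall was that of PSAD1 in cdk8-1 (-2.36 ± 0.07) and of PSAE2 in Col-0 (-3.61 ± 0.09, SE). PSAD and PSAE proteins form the stromal side where ferredoxin docks. PSAD1 had 766, 887 and 738 TPM in cdk8-1 without sulfate, against 2933, 3010.2 and 3034 TPM in cdk8-1 with sulfate, and 391, 390.0 and 381 TPM in Col-0 without sulfate, against 3498, 3548 and 3581 TPM in Col-0 with sulfate. PSAE2 had 274, 364 and 318 TPM in cdk8-1 without sulfate, against 1313, 1388 and 1444 TPM in cdk8-1 with sulfate, and 144, 140.5 and 145 TPM in Col-0 without sulfate, against 1201, 1305 and 1337 TPM in Col-0 with sulfate. In both genes starved cdk8-1 lay above starved Col-0 without overlap. The copies PSAE1 and PSAE2 responded by -2.73 and -2.57 in cdk8-1 and by -4.37 and -3.61 in Col-0. PSAE2 over PSAE1 was 1.458, 1.39 and 1.48 in Col-0 without sulfate, against 0.779, 0.860 and 0.907 in Col-0 with sulfate. PSAF, where plastocyanin binds, PSAG and PSAK, which lie at the membrane edge, and PSAH1, PSAH2 and PSAL, which take part in LHCII docking, had responses from -2.85 (PSAK) to -2.48 (PSAH1) in cdk8-1 and from -4.31 (PSAG) to -3.69 (PSAH1) in Col-0. Of the photosystem I models PSAG shares 61.4% of its exon bases with a gene on the other strand and PSAH1 53.3%. For PSAE1 this overlap is 34.1%, for PSAH2 24.8% and for PSAE2 10.4%. The levels of these genes may be understated, and the ratio of PSAE2 over PSAE1 may be affected.

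Photosystem II genes of the set encode the extrinsic proteins that hold the water-splitting cluster (PSBO, PSBP, PSBQ), PSBR, which helps to bind them, small membrane subunits (PSBW, PSBX, PSBY) and PSBS, the sensor that starts heat dissipation in strong light. PSBR was the most abundant, with 1437, 1595 and 1318 TPM in cdk8-1 without sulfate, against 6014, 6314 and 6233 TPM in cdk8-1 with sulfate. Values were 752, 739.7 and 677 TPM in Col-0 without sulfate, against 7078, 7094 and 7047 TPM in Col-0 with sulfate. PSBS fell most in this class in both genotypes. It had 187, 192 and 173 TPM in cdk8-1 without sulfate, against 1352, 1294 and 1280.4 TPM in cdk8-1 with sulfate, and 69.2, 61.9 and 65.6 TPM in Col-0 without sulfate, against 1243, 1146 and 1134 TPM in Col-0 with sulfate. Starved cdk8-1 was 2.81 times as high as starved Col-0 on means, and its response was -3.27 ± 0.06 in cdk8-1 and -4.60 ± 0.06 in Col-0 (SE). The other 9 genes had responses from -3.01 (PSBQ1) to -2.35 (PSBQ2) in cdk8-1 and from -4.49 (PSBQ1) to -3.67 (PSBO2) in Col-0. The PSBQ copies thus marked both ends in cdk8-1. PSBQ2 had 571, 675 and 541 TPM in cdk8-1 without sulfate, against 2153, 2227 and 2274 TPM in cdk8-1 with sulfate, and 302, 330.3 and 286 TPM in Col-0 without sulfate, against 2844, 2911 and 3086 TPM in Col-0 with sulfate. PSBQ1 had 409, 505 and 416 TPM in cdk8-1 without sulfate, against 2599.7, 2631 and 2607 TPM in cdk8-1 with sulfate, and 167, 167 and 162 TPM in Col-0 without sulfate, against 2894, 2631 and 2646 TPM in Col-0 with sulfate. PSBQ2 over PSBQ1 was 1.39, 1.34 and 1.3 in cdk8-1 without sulfate, against 0.828, 0.847 and 0.872 in cdk8-1 with sulfate, and 1.81, 1.97 and 1.77 in Col-0 without sulfate, against 0.983, 1.11 and 1.17 in Col-0 with sulfate. This ratio was higher without sulfate in both genotypes, with no overlap. PSBO2 over PSBO1 stayed between 0.254 and 0.305 over the 12 libraries. Within this range it was lower without sulfate in cdk8-1, at 0.266, 0.266 and 0.254, against 0.305, 0.287 and 0.288 with sulfate. These did not overlap, whereas the Col-0 groups did.

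Among electron transport genes, PETE1 and PETE2 encode plastocyanin, the copper protein that carries electrons to photosystem I. PETE2, the more abundant, had 406, 465 and 429 TPM in cdk8-1 without sulfate, against 3132, 3037 and 3183 TPM in cdk8-1 with sulfate. Values were 181, 183 and 189 TPM in Col-0 without sulfate, against 3734, 3276 and 3436 TPM in Col-0 with sulfate. Its response was the lowest of the class, at -3.29 ± 0.07 (SE, adjusted p = 3.52e-12) in cdk8-1 and -4.69 ± 0.07 (SE, adjusted p = 8.35e-14) in Col-0. PETE1 had 100.3, 128 and 95.9 TPM in cdk8-1 without sulfate, against 398, 453 and 439 TPM in cdk8-1 with sulfate, and 44.1, 47.0 and 51.1 TPM in Col-0 without sulfate, against 462, 459 and 519 TPM in Col-0 with sulfate. PETE1 over PETE2 was 0.247, 0.275 and 0.224 in cdk8-1 without sulfate, against 0.127, 0.149 and 0.138 in cdk8-1 with sulfate, and 0.244, 0.257 and 0.270 in Col-0 without sulfate, against 0.124, 0.140 and 0.151 in Col-0 with sulfate. The ratio was higher without sulfate in both genotypes, and the starved genotypes overlapped. FNR2, one of the ferredoxin-NADP reductases that end the chain, fell least of the 49 genes in cdk8-1 and on group means in Col-0. It had 169, 221 and 178 TPM in cdk8-1 without sulfate, against 534, 542 and 533 TPM in cdk8-1 with sulfate, and 123, 109 and 109 TPM in Col-0 without sulfate, against 636, 676 and 683 TPM in Col-0 with sulfate. That is 2.83-fold lower in cdk8-1 and 5.86-fold lower in Col-0. FNR1 had 199, 222 and 196 TPM in cdk8-1 without sulfate, against 784, 789 and 757 TPM in cdk8-1 with sulfate, and 110.5, 114 and 111 TPM in Col-0 without sulfate, against 887, 850.3 and 844 TPM in Col-0 with sulfate. The remaining genes were FD2, the main leaf ferredoxin, PETC, the Rieske protein of cytochrome b6f, and ATPC1 and ATPD, the gamma and delta subunits of ATP synthase. Their responses lay between -2.75 (PETC) and -2.10 (ATPC1) in cdk8-1 and between -3.90 (ATPD) and -3.06 (ATPC1) in Col-0.

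**Figure D3:**
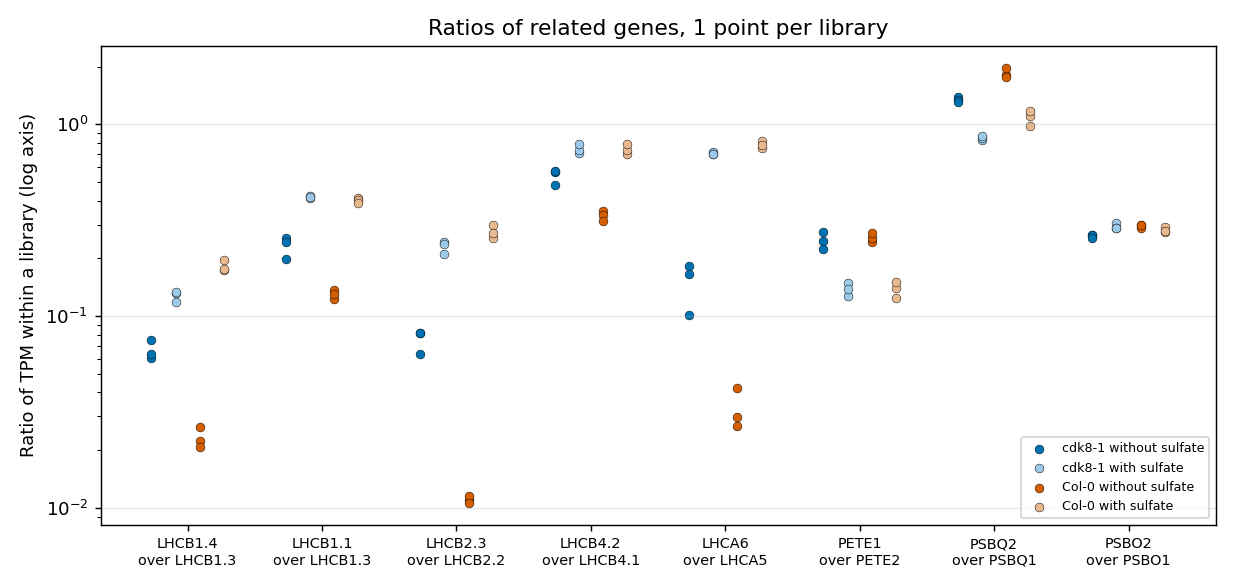
Points are the TPM of the first gene over that of the second within a library, on a log axis, for 8 of the 14 pairs. From left to right within a pair stand cdk8-1 without sulfate, cdk8-1 with sulfate, Col-0 without sulfate and Col-0 with sulfate. The first 5 ratios are lower without sulfate in both genotypes, and those of PETE1 and PSBQ2 are higher. PSBO2 over PSBO1 lies between 0.254 and 0.305 and is lower without sulfate, with no overlap, in cdk8-1 alone.

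With sulfate, the genotypes differed by at most 0.85 on the log2 scale, for LHCB4.3. Of the 49 genes, 17 were lower in cdk8-1, where 4.84% of all tested genes were called lower, and none was higher, where 8.85% were; with the threshold dropped to an unadjusted p of 0.05, 1 was higher, PSBS, and voom on recovered reads called 0. The median member stood at -0.20 (log2, cdk8-1 over Col-0). Without Col-0 with sulfate replicate 3 the count was 11, without cdk8-1 with sulfate replicate 1 it was 11, and without cdk8-1 with sulfate replicate 2 it was 10. In all 12 fits that left out 1 library, 9 of the 17 were called, and these were LHCA2, LHCA3, LHCB4.3, PSAF, PSAG, PSAN, PSBQ2, FD2 and ATPC1. By class, 2 of 6 LHCA, 3 of 13 LHCB, 6 of 12 photosystem I, 3 of 10 photosystem II and 3 of 8 electron transport genes were lower.

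The largest of these differences was that of LHCB4.3, with 15.2, 13.2 and 17.0 TPM in cdk8-1 with sulfate, against 30.0, 31.2 and 23.5 TPM in Col-0 with sulfate, a difference of -0.85 ± 0.14 (SE, adjusted p = 0.00231). PSAF had 3574, 3882 and 3591 TPM in cdk8-1 with sulfate, against 5675, 5992 and 6203 TPM in Col-0 with sulfate, a difference of -0.69 ± 0.07 (SE, adjusted p = 1.39e-04). FD2 had 1805, 2036 and 1637 TPM in cdk8-1 with sulfate, against 2935, 2634 and 2899 TPM in Col-0 with sulfate, a difference of -0.63 ± 0.08 (SE, adjusted p = 3.77e-04). In these 3 genes the groups did not overlap. LHCB1.4 was lower by 0.61 ± 0.17 (SE, adjusted p = 0.0298), a call that was lost in 5 of the fits that left out 1 library. PSBS had 1352, 1294 and 1280.4 TPM in cdk8-1 with sulfate, against 1243, 1146 and 1134 TPM in Col-0 with sulfate, with a difference of 0.16 (95% confidence interval 0.02 to 0.29, adjusted p = 0.110), which did not pass. The abundant LHCB1.1, LHCB1.2 and LHCB1.3 did not pass, with intervals of -0.29 to 0.18, -0.22 to 0.25 and -0.35 to 0.14.

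Without sulfate, 48 of the 49 genes were higher in cdk8-1, where 26.3% of all tested genes were called higher, and none was lower, where 15.0% were, in limma (0 also at an unadjusted p under 0.05) or voom. The same 48 did not overlap between the genotypes, against 35.0% of all tested genes that were higher without overlap. The median member stood at 1.18 on the log2 scale. Class medians were 1.73 for LHCB, 1.24 for LHCA, 1.16 for photosystem I, 1.08 for photosystem II and 0.80 for electron transport genes. Summed levels in starved cdk8-1 were 3.19 times those in starved Col-0 for LHCB genes and 1.81 times for electron transport genes.

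LHCB2.3 had the largest difference, with 79.5, 103 and 51.0 TPM in cdk8-1 without sulfate, against 1.75, 1.63 and 1.41 TPM in Col-0 without sulfate, which is 4.87 ± 0.18 (SE, adjusted p = 5.51e-09). LHCB1.4 followed at 2.98 ± 0.17 (SE, adjusted p = 6.65e-08), then LHCB2.2 at 2.78 ± 0.13 (SE, adjusted p = 2.04e-08) and LHCB1.1 at 2.32 ± 0.11 (SE, adjusted p = 2.44e-08). In each of these 4 genes the highest starved Col-0 library lay below the lowest starved cdk8-1 library. The smallest difference that passed was that of LHCA5, at 0.40 ± 0.07 (SE, adjusted p = 5.49e-04). LHCB4.3 had 4.38, 4.03 and 3.98 TPM in cdk8-1 without sulfate, against 5.45, 3.69 and 5.00 TPM in Col-0 without sulfate, with a difference of -0.14 (95% confidence interval -0.45 to 0.16, adjusted p = 0.451). It was the only one of the 49 genes that did not pass. The starved cdk8-1 library of replicate 2 was the highest of its group for 48 of the 49 genes, and without it the count of higher genes was 48.

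**Figure D4:**
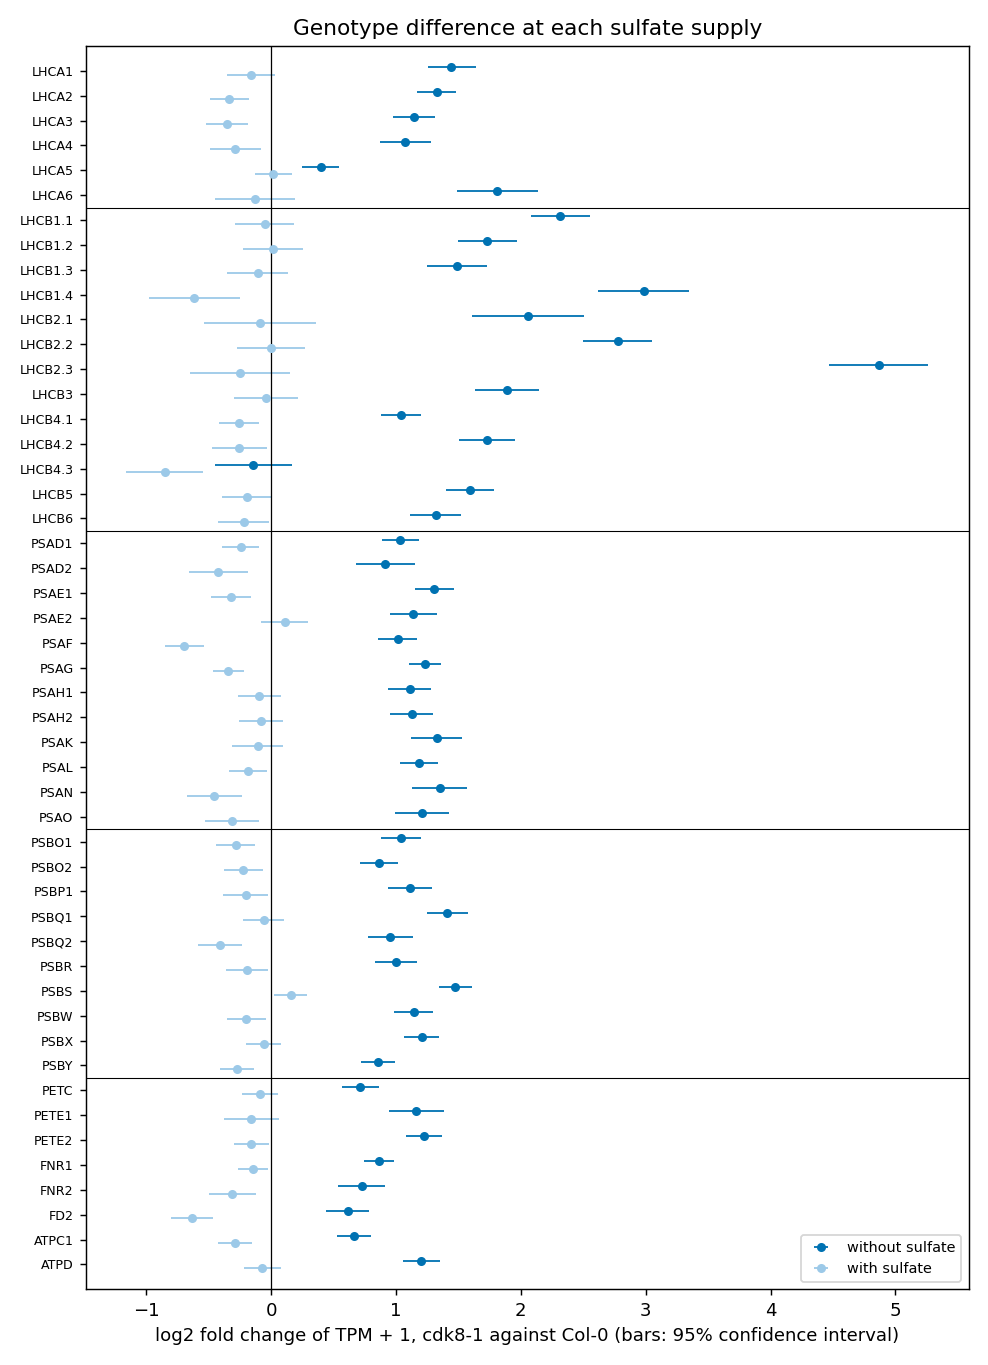
Points are log2 fold changes of TPM + 1, cdk8-1 over Col-0, without sulfate (dark blue) and with sulfate (light blue), and bars are 95% confidence intervals. Without sulfate all genes but LHCB4.3 lie right of 0, by up to 4.87 for LHCB2.3, and with sulfate they lie between -0.85 for LHCB4.3 and 0.16 for PSBS.

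The response to sulfate withdrawal itself differed between the genotypes. In the interaction test, which subtracts the Col-0 response from the cdk8-1 response, all 49 genes were above 0 and passed, where 14.8% of all tested genes did so in that direction and 12.2% in the other. A positive value here means a smaller fall in cdk8-1. The median member stood at 1.36, and the class medians were 1.92 for LHCB, 1.55 for LHCA, 1.402 for photosystem I, 1.32 for photosystem II and 1.14 for electron transport genes. Values ran from 0.38 ± 0.10 (SE, adjusted p = 0.0121) for LHCA5 to 5.12 ± 0.26 (SE, adjusted p = 2.43e-07) for LHCB2.3. For LHCB1.4 the value was 3.60 ± 0.24, for LHCB2.2 2.78 ± 0.18 and for LHCB1.1 2.37 ± 0.15 (SE). That of LHCB4.3 was 0.71 ± 0.20 (SE, adjusted p = 0.0195), and its call was lost without Col-0 with sulfate replicate 2 (0.64) or without cdk8-1 with sulfate replicate 2 (0.62). Genes kept a similar order of response in both genotypes. Across the 49 genes the falls, which rest on separate libraries, had a Pearson correlation of 0.88 and a Spearman correlation of 0.84, given as a description since genes of a library are not independent. The level in supplied Col-0 had a Pearson correlation of -0.19 and a Spearman correlation of -0.44 with the response in Col-0, values that share libraries.

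**Figure D5:**
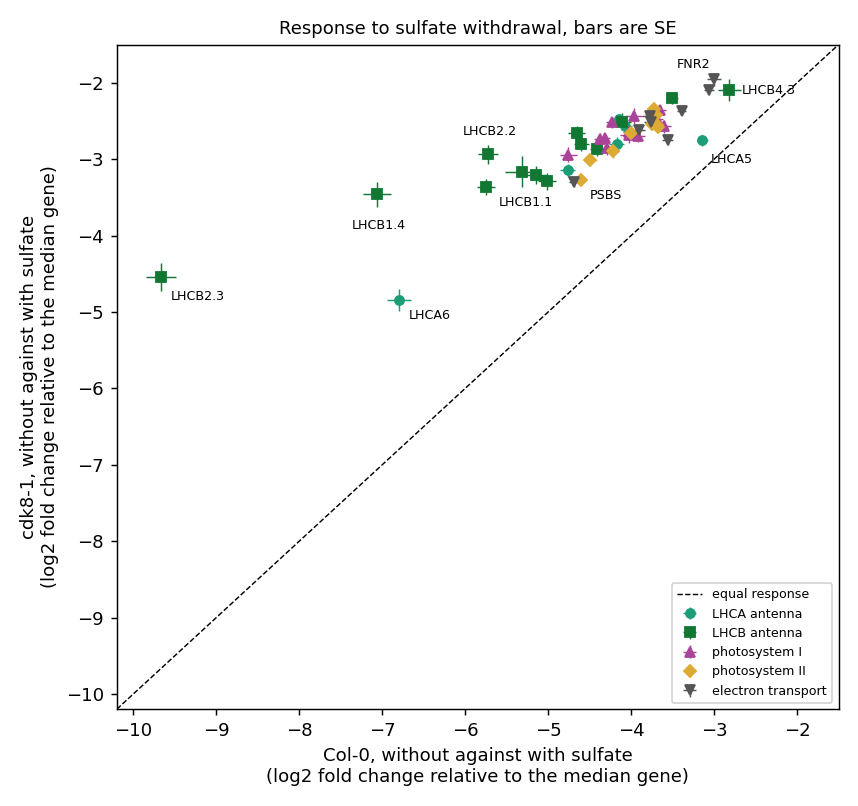
Each point is 1 gene, with the response to sulfate withdrawal in Col-0 on the horizontal and in cdk8-1 on the vertical axis, both as log2 fold changes relative to the median gene, and bars are SE. All 49 points lie above the dashed line of equal response, LHCB2.3 farthest from it at -9.66 in Col-0 and -4.54 in cdk8-1.

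Other genes of the photosynthetic apparatus were read from lists written down by function. Of 14 further light-reaction genes, 11 could be tested, and all 11 were lower without sulfate in cdk8-1 (median -2.56) and in Col-0 (-3.24), beside 24.7% of all tested genes in cdk8-1 and 28.8% in Col-0. Between the starved genotypes 8 of them were higher in cdk8-1, beside 26.3% of all tested genes. PSB27, an assembly factor of photosystem II, responded by -3.36 ± 0.09 in cdk8-1 and -4.84 ± 0.09 in Col-0, and PSBTN, a small photosystem II subunit, by -2.61 ± 0.08 in cdk8-1 and -4.01 ± 0.08 in Col-0 (SE). PSB28 stood at -3.67 ± 0.10 in cdk8-1 and -3.75 ± 0.10 in Col-0, with an interaction of 0.08 (adjusted p = 0.715) that did not pass.

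The NDH complex, which takes part in cyclic electron flow around photosystem I, and the PGR5 and PGRL1 proteins gave 18 tested genes of 19. Without sulfate 17 were lower in cdk8-1 (median -3.42), beside 24.7% of all tested genes. In Col-0 17 were lower (median -4.65), beside 28.8% of all tested genes. The medians of the 49 light-reaction genes were -2.66 in cdk8-1 and -4.07 in Col-0. PNSL2 had 3.29, 2.39 and 1.94 TPM in cdk8-1 without sulfate, against 73.6, 78.1 and 75.2 TPM in cdk8-1 with sulfate, and 1.39, 1.08 and 0.833 TPM in Col-0 without sulfate, against 75.9, 74.8 and 83.5 TPM in Col-0 with sulfate. Its groups without and with sulfate did not overlap. PGRL1B was the exception, called higher on the deposited scale and standing at 0.06 in cdk8-1 and -0.12 in Col-0 relative to the median gene. Between the starved genotypes 17 of 18 were higher in cdk8-1, against 26.3% of all tested genes. LHC-like proteins of stress and pigment handling (ELIP, OHP, LIL3, SEP) were lower without sulfate in 7 of 8 cases in each genotype, set against 24.7% of all tested genes in cdk8-1 and 28.8% in Col-0. ELIP1, an early light-induced protein, did not pass in either, at -0.14 ± 0.36 in cdk8-1 and 0.28 ± 0.36 in Col-0. On the deposited scale its change in Col-0 was 0.73, and it passed as higher when replicate 1 of Col-0 with sulfate was left out (0.99) and when replicate 1 of starved cdk8-1 was (0.73). In contrast, ELIP2 was lower at -2.69 ± 0.22 in cdk8-1 and -2.15 ± 0.22 in Col-0 (SE).

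Among genes for assembly, import and repair of the photosystems 20 of 22 were lower in each genotype, against 24.7% of all tested genes in cdk8-1 and 28.8% in Col-0, with median responses of -1.89 in cdk8-1 and -2.41 in Col-0. CURT1A, CURT1B and CURT1C, which bend thylakoid membranes, had responses of -2.89, -2.92 and -2.298 in cdk8-1 and -4.02, -4.43 and -3.38 in Col-0. CURT1D was higher without sulfate, at 0.70 in cdk8-1 and 1.00 in Col-0. Between the starved genotypes 16 of the 22 were higher in cdk8-1, against 26.3% of all tested genes, and none was lower, against 15.0%.

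Of 16 regulators of photosynthetic genes, 13 were lower without sulfate in each genotype, where 24.7% of all tested genes were lower in cdk8-1 and 28.8% in Col-0. GLK1 and GLK2 are transcription factors that activate antenna and chlorophyll synthesis genes. GLK2 had 67.9, 58.2 and 48.95 TPM in cdk8-1 without sulfate, against 143, 136 and 126 TPM in cdk8-1 with sulfate, and 41.3, 26.6 and 18.5 TPM in Col-0 without sulfate, against 131, 124 and 126 TPM in Col-0 with sulfate. Supplied and starved groups did not overlap, and the response was -1.66 ± 0.21 (SE, adjusted p = 1.42e-04) in cdk8-1 and -2.63 ± 0.21 (SE, adjusted p = 4.90e-07) in Col-0. GLK1 had 141, 142 and 121 TPM in cdk8-1 without sulfate, against 119, 123 and 119 TPM in cdk8-1 with sulfate, and 103, 106 and 74.7 TPM in Col-0 without sulfate, against 115, 104 and 109.6 TPM in Col-0 with sulfate. Its response, -0.28 in cdk8-1 and -0.69 in Col-0 relative to the median gene, did not pass the test on the deposited scale in either genotype. In Col-0 it passed under voom and in 2 of the fits that left out 1 library, those without replicate 1 and without replicate 2 of Col-0 without sulfate, and in cdk8-1, as higher on the deposited scale, without replicate 3 of Col-0 without sulfate. After median-of-ratios scaling it was lower in both, at -0.30 in cdk8-1 and -0.69 in Col-0. Between the starved genotypes GLK1 was higher in cdk8-1 by 0.52 ± 0.11 and GLK2 by 1.05 ± 0.21 (SE). HY5, a transcription factor of the light response, had 9.34, 6.15 and 5.86 TPM in cdk8-1 without sulfate, against 18.8, 16.2 and 14.1 TPM in Col-0 without sulfate. It had 8.78, 7.22 and 6.97 TPM in cdk8-1 with sulfate, against 7.02, 4.89 and 5.39 TPM in Col-0 with sulfate. Starved Col-0 lay above the other 3 groups, and the interaction was -1.48 ± 0.24 (SE, adjusted p = 8.20e-04), opposite in sign to that of the 49 genes. The GATA factor GNC, which promotes greening, responded by -1.64 in cdk8-1 and -2.61 in Col-0, and the plastid sigma factor SIG4 by -3.65 in cdk8-1 and -4.32 in Col-0.

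Markers of leaf cell types moved as well. The 4 mesophyll markers (RBCS1A, RBCS3B, RCA and CA1), which belong to carbon fixation, were lower without sulfate in both genotypes and higher in starved cdk8-1 than in starved Col-0. They summed to 3732 to 4495 TPM in cdk8-1 without sulfate, 38101 to 38342 TPM in cdk8-1 with sulfate, 1424 to 1453 TPM in Col-0 without sulfate and 34944 to 36559 TPM in Col-0 with sulfate. The 2 epidermis markers, ATML1 and PDF1, summed to 66.4 to 76.4 TPM in cdk8-1 without sulfate, 401 to 464 TPM in cdk8-1 with sulfate, 16.1 to 20.5 TPM in Col-0 without sulfate and 373 to 418 TPM in Col-0 with sulfate, the same order of groups as for the light-reaction genes except between the supplied groups. PDF1, a transcript of young epidermis, had 46.3, 32.6 and 36.6 TPM in cdk8-1 without sulfate, against 3.55, 1.91 and 8.07 TPM in Col-0 without sulfate. The 2 phloem markers, SUC2 and APL, summed to 159 to 174 TPM in cdk8-1 without sulfate, 154 to 169 TPM in cdk8-1 with sulfate, 168 to 197 TPM in Col-0 without sulfate and 209.7 to 252 TPM in Col-0 with sulfate, and the 2 guard cell markers, FAMA and KAT1, to 19.0 to 19.7 TPM in cdk8-1 without sulfate, 32.0 to 37.2 TPM in cdk8-1 with sulfate, 19.5 to 23.2 TPM in Col-0 without sulfate and 28.2 to 29.6 TPM in Col-0 with sulfate. Phloem and guard cell sums varied far less than the light-reaction sums. The phloem sum joins opposite changes in Col-0. There SUC2 was called lower without sulfate (-0.45) and APL higher (0.64), both on the deposited scale. Of 6 root markers, PYK10 carried nearly the whole sum, which was 648 to 1028 TPM in cdk8-1 without sulfate, 913 to 1228 TPM in cdk8-1 with sulfate, 306 to 344 TPM in Col-0 without sulfate and 679.7 to 819 TPM in Col-0 with sulfate. On group means CASP1, COBL9 and EXPA7 were instead higher without sulfate in both genotypes, and NRT2.1 in cdk8-1. PYK10 and IRT1 were lower in both. CASP1 had means of 6.85 and 2.56 TPM in cdk8-1 without and with sulfate, and of 1.80 and 1.52 TPM in Col-0. COBL9 had 1.04 and 0.369 TPM in cdk8-1, and 0.267 and 0.134 TPM in Col-0. For PYK10, CASP1 and COBL9, starved cdk8-1 lay above starved Col-0 without overlap. The part of cell type make-up in the results was not tested.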

How the data were processed

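RNA of 12 seedling shoot samples was sequenced, 3 per group. Per the labels' protocols, a NucleoSpin RNA Plant kit was used for extraction and the strand-keeping NEBNext Ultra II Directional kit for the libraries. The authors deposited 1 table of TPM for 32833 loci. Per the submitters' processing notes the tools included STAR 2.7.11b, featureCounts 2.0.8 and DESeq2 1.46, without their roles. Build and annotation of the genome: not given in the sources used here. Columns sum to 1000000 except that of Col-0 with sulfate replicate 3, at 1004125.4. The 12 samples carry 1 batch label, so that no batch could be compared.

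The 19127 genes whose mean reached 1 TPM entered limma 3.58.1 (R 4.3.3) as log2(TPM + 1), with a mean per group, trended empirical Bayes moderation and 5 contrasts. The program was tested on simulated data. Tests were two-sided, p was adjusted over all tested genes by Benjamini and Hochberg, and 0.05 was the threshold. Multiplied by exon lengths from RefSeq TAIR10.1, the TPM of 25760 of 25908 genes gave whole reads to within 0.05 read, from which depth and voom values were taken (48 of the 49 genes, without ATPC1). Sequences, coordinates and gene models come from that assembly by locus tag, which need not be the authors' build, and exon overlaps and shared stretches describe its models. Alternatives were median-of-ratios scaling, a pseudocount of 0.1, a minimum of 5 TPM or none, voom, a replicate block, summed copies and each library left out. Replicate numbers are not stated to pair samples, so the main fit held no replicate term and the block was fitted as an alternative. Same-numbered libraries of different groups deviated together with correlations from -0.004 to 0.305, above 0.1 in 7 of 18 pairs. Differently numbered libraries of different groups ran from -0.240 to 0.125, above 0.1 in 4 pairs. Whether same-numbered libraries share an effect was not tested.

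The 49 genes and the other lists were chosen with earlier results of these data known. Any of the 49 genes could be named, with full values for the most abundant and the extreme genes of each class and for close copies. From the other lists, up to 3 genes per direction and contrast with the smallest p could be named, as well as GLK1, GLK2, ELIP1 and ELIP2.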

Additional observations from a re-analysis of the deposited data

Results flagged for a closer look

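The response to sulfate withdrawal differed between the genotypes, by the interaction term of limma, in all 49 light-reaction genes. Each value below is the log2 response of cdk8-1 less the response of Col-0, and each is positive, meaning a smaller fall in cdk8-1. Among LHCA antenna genes the difference in log2 response was LHCA1 1.60, LHCA2 1.66, LHCA3 1.50, LHCA4 1.36, LHCA5 0.38 and LHCA6 1.94. Among LHCB antenna genes the difference in log2 response was LHCB1.1 2.37, LHCB1.2 1.72, LHCB1.3 1.60, LHCB1.4 3.60, LHCB2.1 2.14, LHCB2.2 2.78, LHCB2.3 5.12, LHCB3 1.92, LHCB4.1 1.3, LHCB4.2 1.98, LHCB4.3 0.71, LHCB5 1.79 and LHCB6 1.54. Among photosystem I genes the difference in log2 response was PSAD1 1.28, PSAD2 1.34, PSAE1 1.63, PSAE2 1.03, PSAF 1.71, PSAG 1.57, PSAH1 1.21, PSAH2 1.21, PSAK 1.44, PSAL 1.37, PSAN 1.80 and PSAO 1.52. Among photosystem II genes the difference in log2 response was PSBO1 1.32, PSBO2 1.08, PSBP1 1.32, PSBQ1 1.47, PSBQ2 1.36, PSBR 1.19, PSBS 1.32, PSBW 1.34, PSBX 1.26 and PSBY 1.13. Among electron transport genes the difference in log2 response was PETC 0.80, PETE1 1.32, PETE2 1.38, FNR1 1.01, FNR2 1.03, FD2 1.25, ATPC1 0.95 and ATPD 1.27. Outside the 49 genes only CDK8, GLK1, GLK2, ELIP1 and ELIP2 could enter this list. Of these GLK2 passed, with a difference of 0.97 (adjusted p = 0.029). In the other lists 15 of 18 NDH and cyclic flow genes, 14 of 22 assembly genes and 6 of 11 further light-reaction genes also passed above 0. So did 4 of 8 LHC-like genes and 6 of 16 regulators, beside 14.8% of all tested genes. HY5, a regulator, passed below 0 at -1.48, beside 12.2% of all tested genes. The adjusted p of the 49 genes was at most 0.0195, and LHCA5 and LHCB4.3 had the smallest differences among them.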

How the results depend on the processing

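Under every alternative fitted, the 49 genes that could be tested stayed lower without sulfate in both genotypes, with 48 of 48 under voom. Between the starved genotypes 47 of 48 were higher in cdk8-1 under voom and 48 of 49 under the other alternatives. In the interaction 47 to 49 passed, LHCB4.3 being lost at 0.73 under voom and at 0.62 and 0.64 without replicate 2 of cdk8-1 with sulfate and of Col-0 with sulfate. The count of 17 genes lower in cdk8-1 with sulfate was the unstable one. It ranged from 10 to 25 with 1 library left out, and was 24 after median-of-ratios scaling, 12 with no filter on low values, 20 with a minimum of 5 TPM and 22 under voom, the cause of these shifts not having been tested. With the replicate block, a term for the replicate number, the count was 18, and no other count over the 49 genes changed. Among the 5 other genes tried (CDK8, GLK1, GLK2, ELIP1 and ELIP2) the block gave calls to GLK1 and ELIP1 in Col-0, at -0.23 and 0.73 on the deposited scale, and to GLK1 in the interaction, at 0.39. The change of GLK1 in cdk8-1, 0.16 on the deposited scale and not called, was -0.30 (adjusted p = 0.0293) after median-of-ratios scaling, and stood at -0.28 relative to the median gene without that scaling. The call of GLK2 in the interaction was lost in several fits with 1 library left out, at 0.85 to 0.97. Depth limits LHCA6 and LHCB2.3 in starved Col-0, which held 11 to 29 reads per library.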
